A study of Mus musculus with 6 samples.

Results

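The genes described here are the ligands and receptors of axon guidance in the lateral cortex of mouse embryos, taken by name from the semaphorin, plexin, ephrin, Eph, Slit, Robo, netrin, Unc5 and netrin-G families together with Dcc. The rule names 68 protein-coding genes of the GENCODE M21 annotation, and 66 of them were among the 17068 genes of the count table. The other two, Plxnb3 and Ntn3, were not in it. Of the 66 genes, 35 encode ligands or netrin-G proteins and 31 encode receptors. Bulk RNA-Seq was made from 6 female c57/bl6 embryos at E12.5, 4 controls without Cre and 2 embryos labelled Foxp1cKO. Controls 1, 2 and 4 carried Foxp1 fl/+, control 3 carried Foxp1 fl/fl, and the Foxp1cKO embryos carried Foxp1 fl/fl;Emx1Cre. The comparison asks how the loss of this transcription factor alters transcription in the early cortex. Emx1Cre recombines in progenitors of the dorsal telencephalon and in their progeny, so blood vessels, microglia and cells arriving from the ventral telencephalon keep the floxed allele intact. The labels do not say which embryos shared a litter, although the authors state that Cre-negative littermates served as controls. The p-values here measure the spread between single embryos, with any difference between litters left in it.

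Guidance molecules steer growing axons, migrating neurons and sprouting vessels. Semaphorins signal through plexins, the secreted class 3 through plexins together with neuropilins. Ephrins are anchored in the membrane and meet Eph receptor kinases on neighbouring cells, Slits repel through Robo receptors, and netrins attract through Dcc and repel through Unc5 receptors. In the embryonic cortex these families shape the path of cortical and thalamic axons, the order of the ventricular zone, and the ingrowth of vessels.

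Between 50076008 and 78346979 counts per library stood behind these values, and the lowest count of any member in any library was 7. Levels between libraries are given as CPM, which are counts scaled to a common library total after TMM normalization, and log2 fold changes are the libraries labelled Foxp1cKO minus the controls, each with its standard error (SE). At these depths 3 counts correspond to 0.0381 to 0.0596 CPM, which covers counting error only. Foxp1 itself had 59.7, 60.8, 71.2 and 79.1 CPM in controls 1 to 4, and 83.2 and 76.8 CPM in the libraries labelled Foxp1cKO. The counts of the targeted gene were therefore not lower in these libraries. Counts over the whole gene do not show whether the floxed exons were lost, so the group is named by its label throughout. From earlier work, the authors state that Foxp1 protein was significantly lost before the stage sampled here. Emx1, which marks the dorsal telencephalon, ranged from 68.8 to 135 CPM over the controls and was lowest in control 3.

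The promoters of 3 members are shown because these genes had the smallest p-values in the comparison among members that have a single RefSeq promoter clear of their annotated gene. Each is the run of 250 bases that ends just before the RefSeq start, read 5′ to 3′ on the strand of the gene, in the build GRCm38.p6, the assembly also called mm10. Unc5b lies on the minus strand at chr10:60831582-60831831, Efna4 on the minus strand at chr3:89338029-89338278, and Epha6 on the minus strand at chr16:60605532-60605781. Capitals mark matches on either strand to ACGTG or GCGTG, the core letters of the hypoxia response element, and to TGTTTA, the core letters of the forkhead motif, which reads TAAACA on the other strand.
Unc5b: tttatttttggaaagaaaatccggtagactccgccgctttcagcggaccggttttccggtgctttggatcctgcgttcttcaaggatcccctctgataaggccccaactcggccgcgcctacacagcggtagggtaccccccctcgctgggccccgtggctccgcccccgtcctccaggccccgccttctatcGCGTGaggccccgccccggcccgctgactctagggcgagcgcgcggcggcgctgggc
Efna4: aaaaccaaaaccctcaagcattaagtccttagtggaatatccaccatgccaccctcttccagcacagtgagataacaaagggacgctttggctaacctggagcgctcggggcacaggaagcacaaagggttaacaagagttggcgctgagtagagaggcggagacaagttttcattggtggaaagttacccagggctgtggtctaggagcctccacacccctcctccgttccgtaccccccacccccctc
Epha6: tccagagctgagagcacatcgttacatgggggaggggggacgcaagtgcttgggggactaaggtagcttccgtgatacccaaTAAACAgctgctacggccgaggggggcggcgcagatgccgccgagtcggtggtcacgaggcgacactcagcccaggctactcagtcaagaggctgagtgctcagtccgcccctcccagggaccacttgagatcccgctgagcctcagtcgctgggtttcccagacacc
The Unc5b promoter held GCGTG with its first base 57 bases before the start, the Epha6 promoter held TAAACA 168 bases before it, and the Efna4 promoter held none of these letters. RefSeq gave 72 promoters for 56 of the 66 members. ACGTG or GCGTG occurred in 41.7% of them (30 of 72) and in 38.6% of all 32851 promoters of the same length, while TGTTTA occurred in 2.78% of the members' promoters and in 12% of all. A match describes letters in this window and does not mark a bound site.

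The families were expressed at very different levels in the control cortex. Per exon length (RPKM, counts scaled by library total and by the length of the merged exons, mean ± SD over 4 controls), the median member was at 7.28 RPKM against 4.60 RPKM for all genes, and 44 of the 66 members lay above that median. The highest was Efnb1, a transmembrane ligand of EphB receptors, at 75.6 ± 9.81 RPKM. Epha4, a receptor that binds ephrins of both classes, followed at 53.1 ± 2.50 RPKM, and Efnb2, the ligand of EphB4 on vessels, at 45.5 ± 7.15 RPKM. The semaphorin 4 receptor Plxnb2 reached 40.3 ± 2.23 RPKM and the semaphorin 6 receptor Plxna2 reached 39.7 ± 11.5 RPKM, so these neighbours in the order did not differ beyond their spread. In the order of all members, the ranges of neighbouring genes overlapped in 62 of 65 steps.

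Among secreted ligands the levels were lower. Slit1 was the most expressed Slit at 16.2 ± 2.98 RPKM, Ntn4, a netrin of basement membranes, was at 11.8 ± 1.37 RPKM, and Sema3c led the class 3 semaphorins at 6.81 ± 1.95 RPKM. Dcc stood at 17.1 ± 2.21 RPKM and Robo2 at 13 ± 3.39 RPKM, an order that turned with the length of the longest transcript, where Dcc was at 21.9 RPKM and Robo2 at 25.7 RPKM. Epha10 (0.0865 ± 0.0643 RPKM) and Epha1 (0.0822 ± 0.0695 RPKM), chosen for naming after their values were seen, were at the bottom, and 10 members in all were below 1 RPKM. By the length of the longest transcript, Plxna2 was at 61.8 RPKM and Epha10 at 0.134 RPKM.

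**Figure D1:**
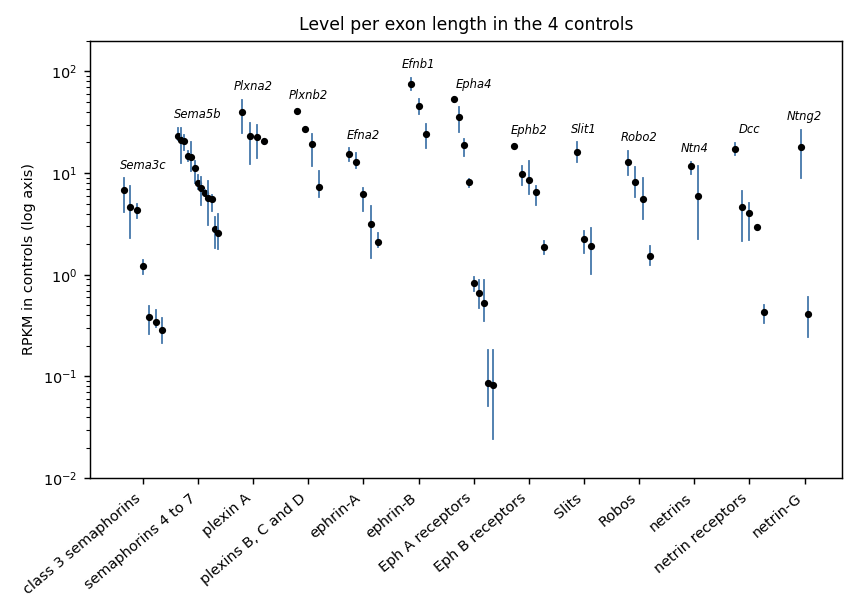
Levels per exon length in the 4 controls, with RPKM on a log axis and the members grouped by family. Points are means and bars run from the lowest to the highest control; the gene named in each family is its highest, with Efnb1 at 75.6 RPKM above all others.

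In the comparison of the groups, 0 of the 66 members passed an adjusted p of 0.05 when tested by quasi-likelihood in edgeR, with p-values adjusted over the whole table by the method of Benjamini and Hochberg. Of 17068 genes in all, 26 passed, or 0.152%, all of them higher (0.152%), while 0.00% were lower. At an unadjusted p under 0.05 there were 9 members, or 13.6%, beside a background of 13% of all genes, so the share of members did not stand out. These 9 were uneven in direction, 8 being higher (background 6.53%) and 1 lower (background 6.50%). DESeq2 called 1 member, Unc5b, where it called 3.36% of genes, and limma on the VST values called 0 where it called 0.158%. With limma, 10 members had an unadjusted p under 0.05, as did 13.6% of all genes. The fitted log2 fold changes of the members ran from -0.50 to 1.06 with a median of 0.07, against a median of -0.0044 for all genes, and 39 were above 0 and 27 below.

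Both libraries labelled Foxp1cKO lay above all 4 controls for 12 members (18.2%, background 11.5%) and below all of them for 2 members, Efna4 and Plxnb1 (3.03%, background 13.1%). Leaving out any control can only raise these counts, in the members and in all genes, and this was done for controls 3 and 4 only. Without control 3, 19 members lay above (18.1% of all genes) and 4 below (19.6% of all genes), and without control 4, 13 members lay above (19.3% of all genes) and 11 below (20.1% of all genes). The median of the members against each control in turn was 0.13, 0.04, -0.08 and 0.44 on the log2 scale for controls 1 to 4, so its sign depended on which control was used. The SE of the log2 fold change had a median of 0.227 over the members and of 0.170 over all genes.

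**Figure D2:**
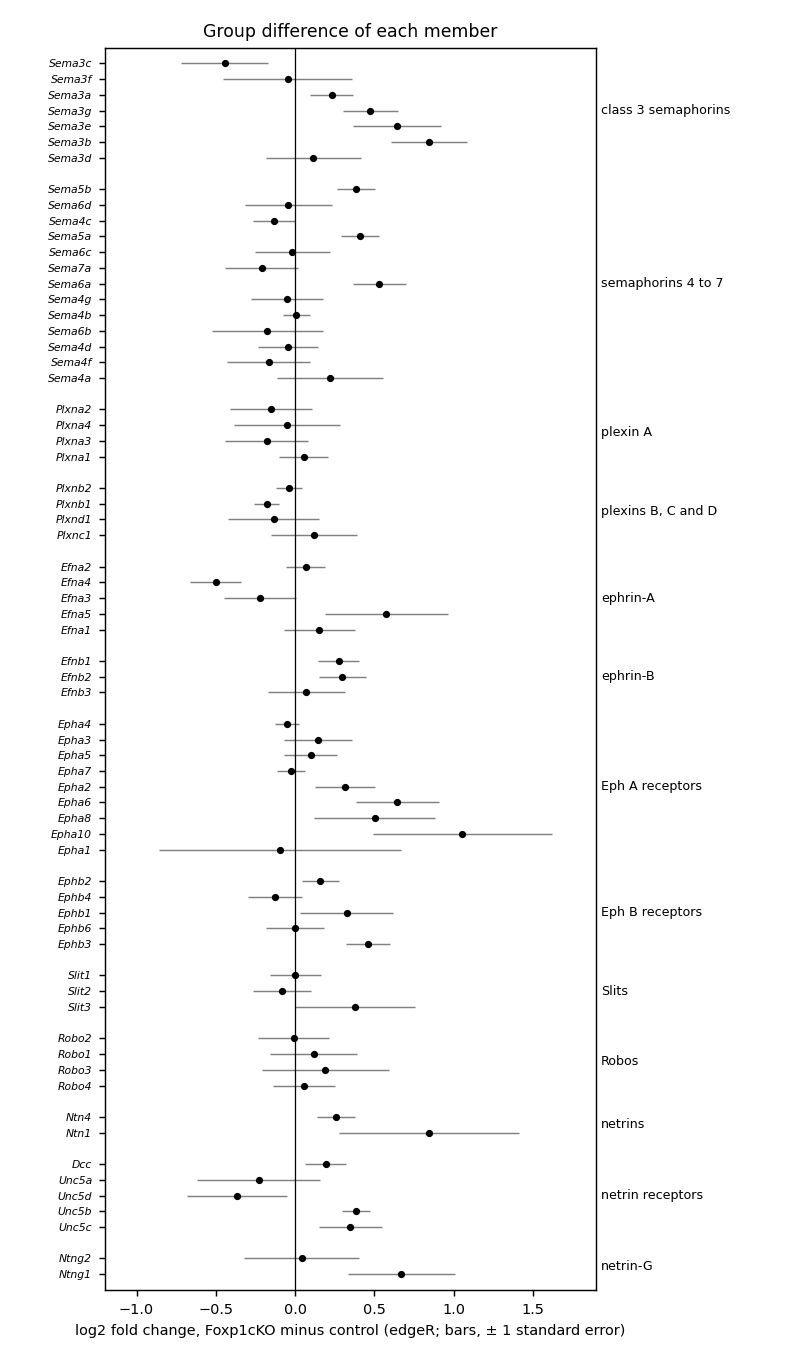
Fitted log2 fold changes of the 66 members, libraries labelled Foxp1cKO minus controls, by family, with bars of 1 SE. Values run from -0.50 to 1.06, and 0 of 66 passed the adjusted threshold in edgeR's quasi-likelihood test.

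Of the 8 members that were higher at an unadjusted p under 0.05 (6.53% of all genes), 2 were among the 7 class 3 semaphorins and 3 among the 13 semaphorins of classes 4 to 7. Sema5a, a transmembrane semaphorin with thrombospondin repeats that can attract or repel axons, had 247, 311, 283 and 249 CPM in controls 1 to 4, and 336 and 389 CPM in the libraries labelled Foxp1cKO. Both of the latter exceeded every control, and the log2 fold change was 0.41 (SE 0.118, adjusted p = 0.279 by edgeR). Its close relative Sema5b had 152, 151, 196 and 161 CPM in the controls, and 224 and 207 CPM in the libraries labelled Foxp1cKO. Again the groups did not overlap, and the log2 fold change was 0.38 (SE 0.119, adjusted p = 0.291 by edgeR). For Sema6a, a transmembrane ligand of plexins A2 and A4, the controls had 60.8, 71.5, 84.9 and 60.7 CPM, and the libraries labelled Foxp1cKO had 113 and 87.6 CPM. The second of them lay just above control 3, and the log2 fold change was 0.53 (SE 0.166, adjusted p = 0.292 by edgeR) and 0.33 without the first library labelled Foxp1cKO.

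Of the 7 class 3 semaphorins, the secreted ones, 3 also had both libraries labelled Foxp1cKO above the controls, where 11.5% of all genes did so, and all 3 were at low levels. Sema3b had 1.49, 1.46, 2.17 and 1.49 CPM in the controls, and 2.76 and 3.18 CPM in the libraries labelled Foxp1cKO. Control 3 stood above the other controls, and the log2 fold change was 0.85 (SE 0.239, adjusted p = 0.278 by edgeR). Sema3g, which endothelial cells make, had 6.33, 5.38, 4.61 and 5.94 CPM against 7.31 and 8.15 CPM, a log2 fold change of 0.47 (SE 0.176, adjusted p = 0.345 by edgeR). Sema3e, the ligand that binds plexin D1 without a neuropilin, had 2.42, 3.93, 4.62 and 3.24 CPM against 4.85 and 6.25 CPM, and its lower Foxp1cKO value was close to control 3. Its log2 fold change was 0.64 (SE 0.276, adjusted p = 0.388 by edgeR).

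The most expressed class 3 members lay within the controls or crossed them. Sema3a, the classical repellent of cortical axons, had 54.6, 65.1, 68.4 and 50.3 CPM in the controls, and 68.2 and 71.7 CPM in the libraries labelled Foxp1cKO, which overlapped control 3. Sema3c had 49.9, 51.8, 63.1 and 29.7 CPM against 31.9 and 39.5 CPM, so that both libraries labelled Foxp1cKO lay between control 4 and the other controls. Of the 13 semaphorins of classes 4 to 7, 5 had fitted values above 0 and 8 below, beside 49.3% of all genes above 0. Of these 13, 10 overlapped the controls, as did 12868 of all 17068 genes.

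Plexins, the semaphorin receptors, showed little separation. Plxna2 had 649, 756, 895 and 428 CPM in the controls, and 610 and 618 CPM in the libraries labelled Foxp1cKO. Plxna4, which works with neuropilins in the response to class 3 semaphorins, had 326, 385, 435 and 173 CPM against 276 and 361 CPM. For each of these receptors both libraries labelled Foxp1cKO lay inside a wide control range. Plxnb1, a semaphorin 4 receptor, had 264, 249, 273 and 258 CPM against 243 and 218 CPM. It was the one plexin below every control, by a log2 fold change of -0.18 (SE 0.0790, adjusted p = 0.399 by edgeR), with another gene of the count table, Gm7628, overlapping its exons on the opposite strand. Plxnb2 had 329, 322, 291 and 304 CPM against 313 and 293 CPM, and Plxnd1, the receptor of Sema3e on vessels and some neurons, had 179, 148, 146 and 85.8 CPM against 103 and 151 CPM. Neither was separated from the controls.

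**Figure D3:**
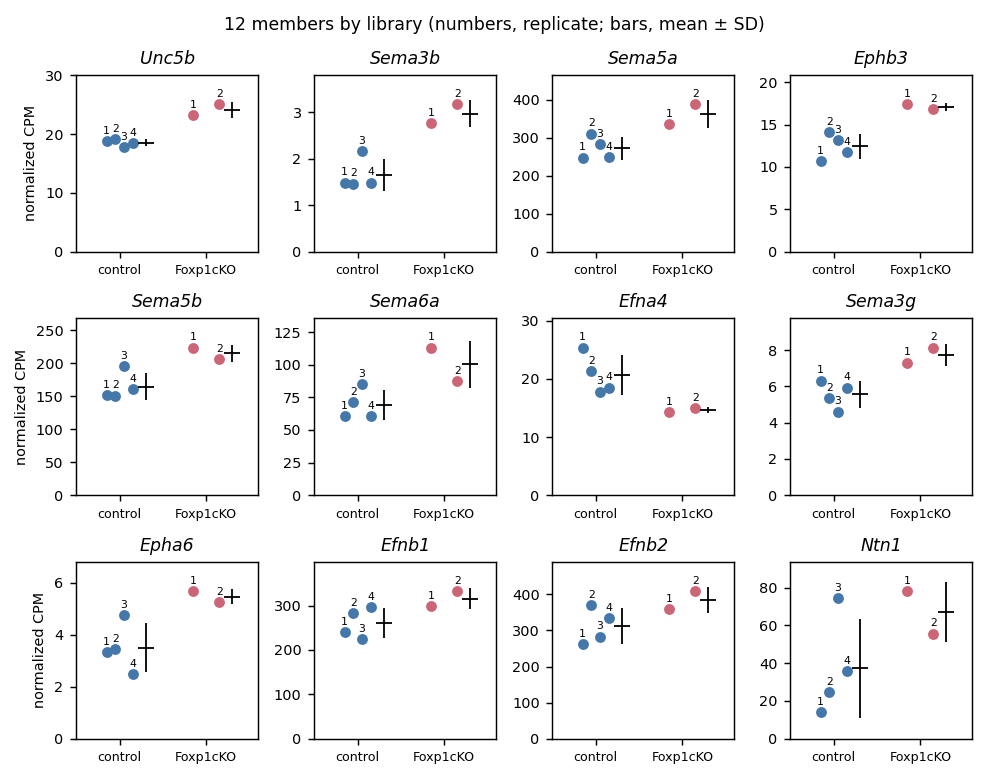
Normalized CPM of 12 members in each library, 9 with an unadjusted p under 0.05 and Efnb1, Efnb2 and Ntn1. Points are libraries with their replicate number, and bars are the mean ± SD of the 4 controls and of the 2 libraries labelled Foxp1cKO. Unc5b ran from 17.8 to 19.1 CPM in the controls and was 23.2 and 25.1 CPM in the libraries labelled Foxp1cKO.

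All 3 ephrin-B ligands had fitted values above 0, and their summed level was 566, 743, 605 and 685 CPM in the controls against 748 and 811 CPM in the libraries labelled Foxp1cKO. The sum in the first of these exceeded control 2 by little. Efnb1, on the X chromosome in these female embryos, had 241, 283, 224 and 296 CPM against 298 and 333 CPM, which put one library next to control 4. Its log2 fold change was 0.27 (SE 0.128, adjusted p = 0.414 by edgeR). Efnb2 had 261, 370, 283 and 333 CPM against 359 and 409 CPM and overlapped control 2, with a log2 fold change of 0.30 (SE 0.148, adjusted p = 0.438 by edgeR). Without the second library labelled Foxp1cKO, the log2 fold changes were 0.18 for both Efnb1 and Efnb2.

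Ephrin-A ligands differed from one another. Efna4 had 25.4, 21.3, 17.8 and 18.5 CPM in the controls, and 14.3 and 15 CPM in the libraries labelled Foxp1cKO. Both lay below every control, and the log2 fold change was -0.50 (SE 0.163, adjusted p = 0.303 by edgeR), the lowest of all members. The exons of Efna4 (ENSMUSG00000028040.7) are overlapped on the opposite strand by 4731419I09Rik. The strand setting of the counting is not given in the sources used here, so the values of Efna4 are uncertain. The same holds for the 7 other members with such a partner in the table, Efna3, Epha1, Ephb1, Ephb4, Plxnb1, Sema4c and Unc5a. In all, 16 members have an exon overlapped by another annotated gene, 13 on the opposite strand and 3 on the same strand. These include Epha6, Epha10 and Plxna4 (opposite strand) and Ntng2 (same strand), whose partners are not in the table. Their values are uncertain as well. Efna5, which patterns cortical areas and the paths of their axons, had 5.91, 13.6, 12.4 and 19.2 CPM against 18.6 and 19.5 CPM. Control 4 reached the level of the libraries labelled Foxp1cKO, while control 1 was far lower. Efna2, the most expressed ephrin-A per exon length, had 28.1, 33.5, 33.6 and 37.3 CPM against 36.9 and 32.5 CPM, within the controls.

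Of the Eph receptors, Ephb3 (ENSMUSG00000005958.14, a receptor of B ephrins on the plus strand of chromosome 16) gave the smallest p. It had 10.7, 14.1, 13.2 and 11.7 CPM in the controls, and 17.4 and 16.8 CPM in the libraries labelled Foxp1cKO. These did not overlap the controls, and the log2 fold change was 0.46 (SE 0.139, adjusted p = 0.289 by edgeR). Epha6 had 3.33, 3.46, 4.75 and 2.48 CPM against 5.68 and 5.26 CPM, likewise apart, with a log2 fold change of 0.64 (SE 0.261, adjusted p = 0.370 by edgeR). Ephb2, the most expressed EphB receptor, had 222, 221, 242 and 239 CPM against 293 and 224 CPM, so that only the first library labelled Foxp1cKO exceeded the controls.

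The highly expressed EphA receptors stayed inside the control range or close to it. Epha4 had 447, 401, 425 and 439 CPM in the controls, and 410 and 414 CPM in the libraries labelled Foxp1cKO, a log2 fold change of -0.05 (SE 0.0757, adjusted p = 0.799 by edgeR) that was -0.08 without control 2. All 6 libraries thus lay between 401 and 447 CPM. Epha3 had 302, 316, 390 and 218 CPM against 374 and 304 CPM. Epha5 had 317, 350, 362 and 246 CPM against 309 and 372 CPM, with the second library just above control 3. Epha10, named after its values were seen, had the largest fitted value of any member, 1.06 (SE 0.565, adjusted p = 0.468 by edgeR), from 0.388, 0.418, 1.32 and 0.368 CPM against 1.53 and 1.08 CPM. Control 3 lay between the libraries labelled Foxp1cKO, far above the other controls.

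None of the 7 Slits and Robos was separated from the controls, as was true of 12868 of all 17068 genes. Their fitted log2 fold changes were above 0 for 2 of 3 Slits and 3 of 4 Robos, beside 49.3% of all genes. Slit1 had 94.4, 95.5, 118 and 75.2 CPM in the controls and 97.0 and 95.0 CPM in the libraries labelled Foxp1cKO, a log2 fold change of 0.0020 (SE 0.163, adjusted p = 0.996 by edgeR). Slit2 had 61.3, 55.3, 41.5 and 68.4 CPM against 54.5 and 52.4 CPM. Both ligands were within the controls. The receptor Robo1 had 105, 150, 191 and 95.3 CPM against 158 and 136 CPM, and Robo2 had 182, 255, 283 and 162 CPM against 212 and 226 CPM. For both receptors the highest control was well above, and the lowest well below, the libraries labelled Foxp1cKO. The largest fitted values of these families, 0.38 for Slit3 (SE 0.376) and 0.19 for Robo3 (SE 0.401), both named after their values were seen, were close to or below their SE.

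Among the netrin receptors, Unc5b gave the smallest p of all members. The gene (ENSMUSG00000020099.8) lies on the minus strand of chromosome 10, from 60762593 to 60831581. It encodes a repulsive receptor of netrin-1 and is found on neurons and on endothelial tip cells. It had 18.8, 19.1, 17.8 and 18.4 CPM in controls 1 to 4, and 23.2 and 25.1 CPM in the libraries labelled Foxp1cKO. The controls were close together and both other libraries were clear of them. The log2 fold change was 0.38 (SE 0.0908) with an unadjusted p of 0.00382, and the adjusted p was 0.242 by edgeR's quasi-likelihood test and 0.0063 by DESeq2. Dcc had 196, 263, 233 and 210 CPM against 239 and 277 CPM and overlapped the controls.

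The netrins differed from each other in their spread. Ntn4 had 36.8, 44.2, 48.1 and 47.0 CPM in the controls, and 52.7 and 52.6 CPM in the libraries labelled Foxp1cKO, which were close to each other and above every control. Its log2 fold change was 0.26 (SE 0.117, adjusted p = 0.407 by edgeR), and 0.16 without control 1. Ntn1 had 14.0, 24.9, 74.5 and 35.7 CPM against 78.1 and 55.6 CPM. Its log2 fold change of 0.84 came with an SE of 0.568 (adjusted p = 0.555 by edgeR), and control 3 lay between the libraries labelled Foxp1cKO. This log2 fold change was 0.55 without control 1 and 1.41 without control 3. In control 3 the summed level of 11 markers of the ventral telencephalon, where Ntn1 is also made, was 989 CPM, against 281, 423 and 324 CPM in controls 1, 2 and 4 and 635 and 463 CPM in the libraries labelled Foxp1cKO. Ntn1 and these markers were both highest among the controls in control 3, and the part of ventral cells in its values was not tested. Ntng2, a membrane-anchored netrin-G that does not bind Dcc, had 80.1, 69.2, 105 and 36.0 CPM against 68.5 and 80.8 CPM.

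In a list of 10 members known from blood vessels, both libraries labelled Foxp1cKO lay above all 4 controls for 5. These were Epha2, Sema3g, Sema3e, Unc5b and Ntn4. The share was 18.2% over the 66 members, which include these 10, and 11.5% over all genes. Because the list was chosen with earlier results of these data known, this count is only a description. Of these 10, 8 had fitted values above 0, the median was 0.28, and 0 passed edgeR's adjusted threshold. Epha2 had 4.12, 3.88, 3.21 and 4.41 CPM in the controls, and 5.07 and 4.65 CPM in the libraries labelled Foxp1cKO. The other vessel genes overlapped the controls, with Ephb4, the venous receptor of Efnb2, at 51.3, 42.6, 35.3 and 54.1 CPM against 41.7 and 42.1 CPM. Robo4, an endothelial Robo, had 10.1, 7.97, 6.54 and 7.66 CPM against 7.93 and 8.85 CPM, and Efna1 had 4.68, 3.54, 3.40 and 3.86 CPM against 3.54 and 5.06 CPM.

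Beside these genes, the 12 endothelial markers summed to 260, 174, 167 and 208 CPM in the controls and to 234 and 288 CPM in the libraries labelled Foxp1cKO, which overlapped. Flt1, named after its values were seen, was the one of the 12 that passed edgeR's threshold. The 9 mural cell markers summed to 242, 224, 201 and 243 CPM against 303 and 313 CPM, and 9 red cell genes to 1459, 1105, 1156 and 3501 CPM against 3820 and 4079 CPM, both above every control. A list of 12 targets of the hypoxia-inducible factor stood at 1011, 913, 766 and 1222 CPM against 2389 and 2893 CPM. Of these, 11 had fitted values above 0 and 1, Ndrg1, was at -0.33. In all, 6 of the 12 passed edgeR's threshold (background 0.152%). The list was chosen with earlier results of these data known, and the authors had reported many of its genes as higher. These counts are therefore only a description. In bulk tissue, more cells of a type and more RNA per cell cannot be told apart, and the part of vessel cells in the values of the members was not tested.

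The controls differed among themselves more in these genes than in the median gene of the table. The ratio of the highest to the lowest control had a median of 1.67 over the members and of 1.37 over all genes. Control 3 was the highest and control 4 the lowest control for 33 of the 66 members, and for 19% of all genes. The order was shared by all 4 A plexins and by 10 of the 13 semaphorins of classes 4 to 7. The reverse order was found for 5 members, Epha1, Epha2, Ephb4, Efnb1 and Slit2 (7.58%, against 22.3% of all genes), of which Epha1 was named after its values were seen. The summed neuron markers followed the same order, with 5559, 6719, 7371 and 3979 CPM in controls 1 to 4, and 11 of 15 of them had control 3 highest and control 4 lowest. The radial glia markers had 3367, 3476, 2889 and 3875 CPM, and 7 of 11 of them had the reverse order. In the libraries labelled Foxp1cKO the neuron markers were at 5371 and 5543 CPM and the radial glia markers at 3697 and 3503 CPM, inside the control range. The 8 intermediate progenitor markers summed to 968, 1039, 802 and 792 CPM in controls 1 to 4, against 742 and 835 CPM. Of these 8, 7 had fitted values below 0 and 1 above, and 3 lay below every control (37.5%, background 13.1%). Of the 8, 0 passed edgeR's adjusted threshold. Cajal-Retzius cell markers had 418, 520, 454 and 462 CPM in the controls and 531 and 635 CPM in the libraries labelled Foxp1cKO, above every control, while meningeal markers ranged from 102 to 594 CPM over the controls and stood at 161 and 359 CPM. Control 3 is also the one control with Foxp1 fl/fl, so its genotype and its other differences cannot be told apart.

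The A plexins summed to 1354, 1515, 1764 and 885 CPM in the controls and to 1287 in each library labelled Foxp1cKO. The sum over all members was 6487, 7103, 7730 and 5586 CPM against 7029 and 7045 CPM. Both sums placed the libraries labelled Foxp1cKO between the extremes set by controls 3 and 4. How far the mix of neurons and progenitors enters these values was not tested.

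**Figure D4:**
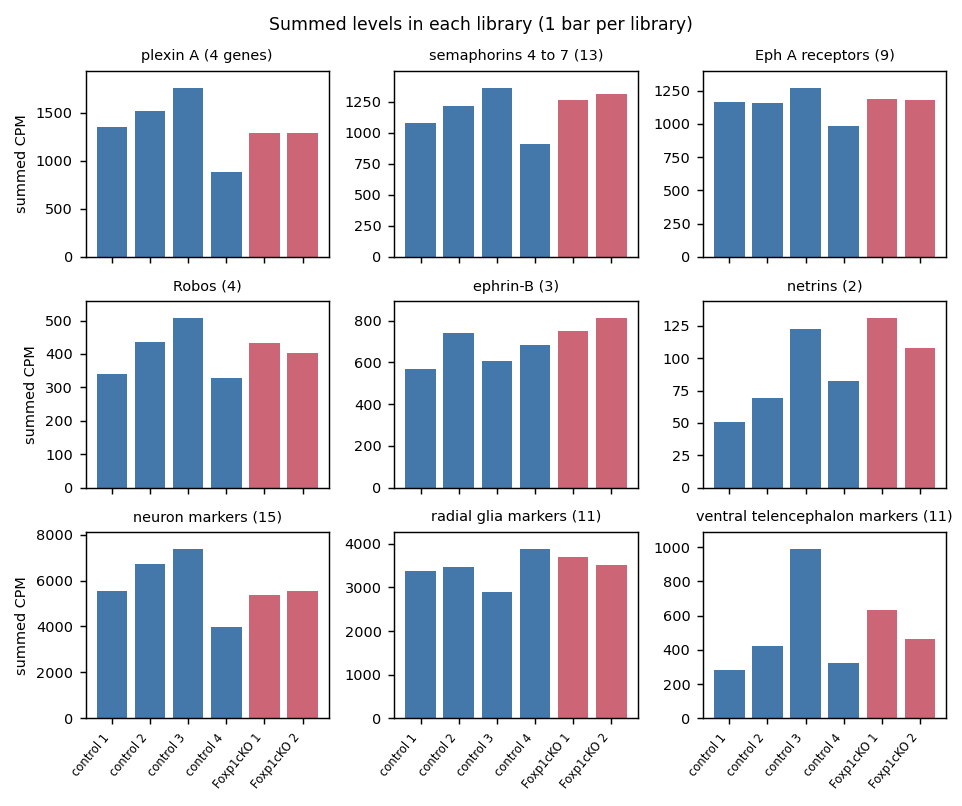
Summed CPM in each library, 1 bar a library, of 6 member families and of the neuron, radial glia and ventral telencephalon markers. Over the controls the neuron sum ran from 3979 to 7371 CPM and the ventral sum from 281 to 989 CPM, and only the ephrin-B ligands had both libraries labelled Foxp1cKO above all 4 controls.

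**Figure D5:**
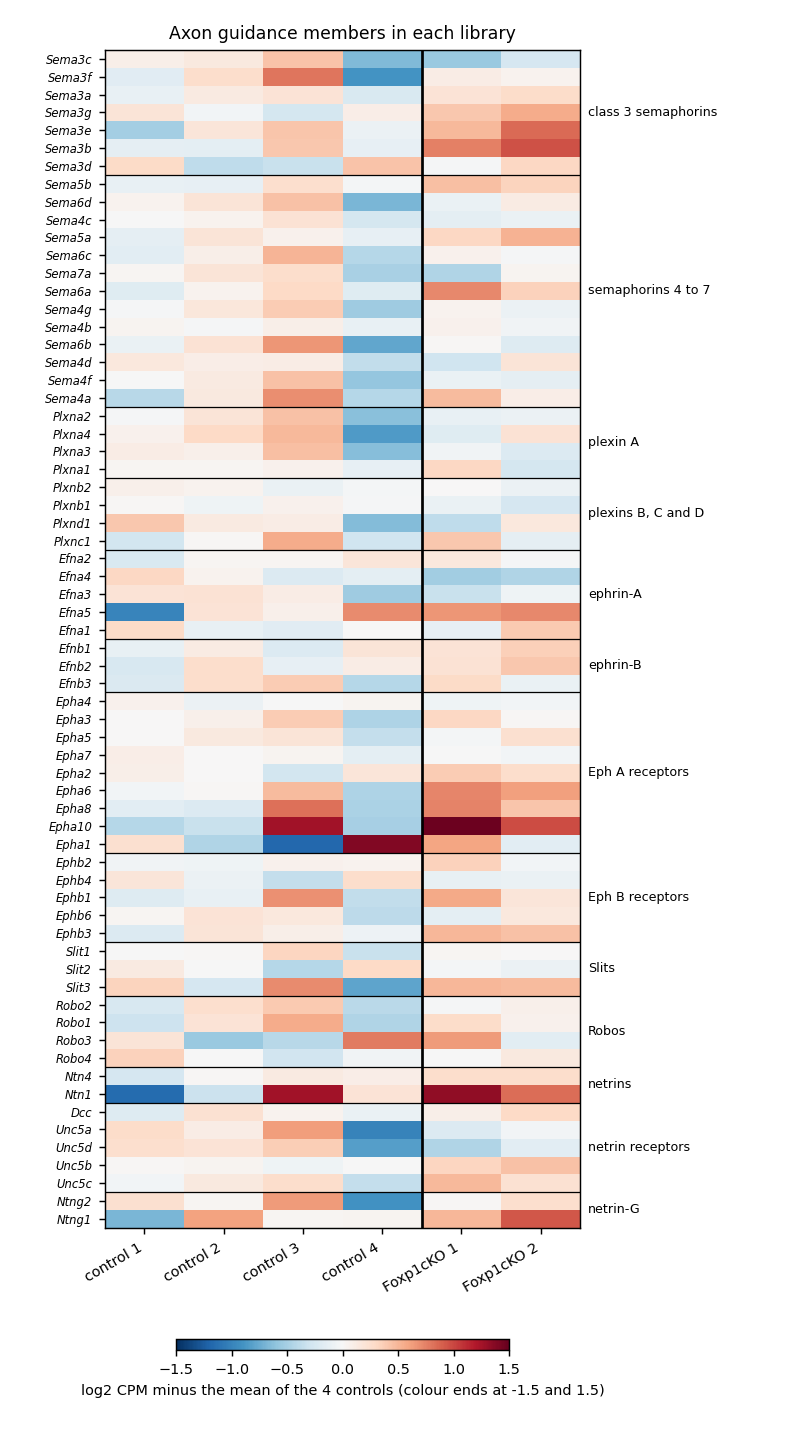
Each member in each library as log2 CPM minus the mean of the 4 controls, grouped by family. Control 3 is the highest and control 4 the lowest control for 33 of the 66 members.

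The genes that act beside and below these receptors were read from a list of 60 coreceptors, adaptors, signalling regulators and cytoskeletal effectors, all 60 in the table. None passed edgeR's adjusted threshold (0 of 60, background 0.152%), 5 (8.33%) had an unadjusted p under 0.05 beside 13% of all genes, of which 3 were higher (background 6.53%) and 2 lower (background 6.50%), and the median log2 fold change was 0.0094. DESeq2 called 1, Tiam1, and limma called 0. Tiam1, a Rac exchange factor in ephrin signalling, had 55.1, 57.0, 65.1 and 66.1 CPM in the controls and 81.7 and 83.9 CPM in the libraries labelled Foxp1cKO, a log2 fold change of 0.44 (SE 0.0977, adjusted p = 0.242 by edgeR and 0.0102 by DESeq2). Nrp2, a neuropilin that takes part in Sema3f signalling, had 92.5, 133, 117 and 110 CPM against 163 and 146 CPM. Its groups did not overlap, and the log2 fold change was 0.45 (SE 0.140, adjusted p = 0.292 by edgeR). Nrp1, the neuropilin of Sema3a, had 78.3, 62.3, 63.0 and 54.5 CPM against 53.6 and 56.6 CPM, and overlapped control 4.

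Lower values were found in this list too. Cfl1, which severs actin filaments, had 812, 832, 791 and 769 CPM in the controls and 610 and 705 CPM in the libraries labelled Foxp1cKO, a log2 fold change of -0.28 (SE 0.0888, adjusted p = 0.292 by edgeR) that was -0.18 without the first of these. Rnd1, whose protein binds plexins, had 8.69, 6.53, 5.54 and 4.64 CPM against 2.48 and 3.95 CPM, with a log2 fold change of -0.97 (SE 0.317, adjusted p = 0.302 by edgeR). Both genes lay below every control in both libraries labelled Foxp1cKO without passing the threshold. They were the only 2 of the 60 to do so (3.33%, background 13.1%). Above every control lay 4 of the 60 (6.67%, background 11.5%).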

How the data were processed

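Total RNA of lateral cortex was sequenced in 6 libraries, 4 controls and 2 labelled Foxp1cKO, grouped by the labels. The authors made stranded libraries, used STAR for alignment to mm10 and HTSeq 0.9.1 in union mode for gene counts, and removed low genes. The strand setting of the counting is not given in the sources used here. The deposited count table holds raw counts of 17068 genes. A second deposited table holds variance-stabilized (VST) values of these counts on a log2-like scale, used here only for limma.

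Members, gene lists and the rule for named genes were chosen with earlier results of these data known. Named members were those past the adjusted threshold, the 12 with the smallest p, those with groups apart and an absolute log2 fold change of at least 0.3, the highest of each of 13 families, a fixed core and the vessel list, 37 in all. Unc5 was read as Unc5 and 1 letter, which leaves out the unrelated Unc50. From the 60 other pathway genes, Nrp1, Nrp2 and those with the smallest p were named.

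Counts were tested with edgeR 4.0.16 in R 4.3.3, using its quasi-likelihood test with TMM scaling, the group alone, all genes, and Benjamini-Hochberg adjustment at 0.05. Litter, which the authors modelled, was not used here. Alternatives were DESeq2 1.42.0, limma 3.58.1 on the VST values, other size factors, filters on low counts, robust dispersion, each library left out, and the replicate number as a block. After the data were seen, the counts of members outside the control range were repeated with other scalings and without control 3 or 4. The tests were tried on simulated data. RPKM used merged exons of GENCODE M21, in which 17047 identifiers were found and 21 were not; promoters came from RefSeq on GRCm38.p6. Pairs of controls differed by a chi-square per gene of 25.9 to 193 and the Foxp1cKO pair by 31.4, so no library was a copy of another.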

Additional observations from a re-analysis of the deposited data

Results flagged for a closer look

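In 4 of the 66 members 1 control stood far from the other controls, measured by its gap to the nearest control over the range of the 4 controls. By chance about 1 in 20 groups would do so, so this count did not stand out. The share over all genes was not computed. The members are not independent here, as control 3 was the highest control for 60.6% of them and for 31.2% of all genes. Control 3 was the high one in 3 of them, with 2.17 CPM of Sema3b (nearest control 1.49 CPM), 4.14 CPM of Epha8 (nearest 2.08 CPM) and 1.32 CPM of Epha10 (nearest 0.418 CPM). Control 4 was the low one for Sema4d, with 32.6 CPM beside 44.7 CPM in the nearest control. Epha8 is a low-level ephrin-A receptor and Sema4d a ligand of plexin B1, and both were named after their values were seen.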

How the results depend on the processing

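Over 14 alternatives, 13 called 0 members. DESeq2 called 1 member (Unc5b) and 1 gene of the list of 60 (Tiam1). The adjusted p of Unc5b ran from 0.0063 to 0.758 over the alternatives. The median of the members ran from 0.07 to 0.09 in alternatives with all libraries and from 0.02 to 0.13 when a library was left out. Outside the control range, 19 members lay above and 4 below without control 3, and 13 above and 11 below without control 4. These counts are to be read beside the shares of all genes given for the same settings in the Results, which also rose.

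Of 336 values of the 42 named genes with all libraries, 328 kept their direction and side of the threshold, 2 passed it, and 6 had another sign. These were Plxna4 at 0.020 and Robo2 at 0.030 with limma, Robo2 at 0.010 with total counts, and, with the replicate block, Robo2 at 0.022, Ntng2 at -0.00081 and Robo4 at -0.099. With a library left out, 25 of 252 values had another sign, and the ranges were -0.014 to 0.27 for Epha3, -0.061 to 0.22 for Epha5, -0.047 to 0.32 for Ephb2, -0.026 to 0.14 for Efna2, -0.15 to 0.39 for Efna1, -0.18 to 0.26 for Ntng2, -0.28 to 0.13 for Plxna4, -0.45 to 0.11 for Plxnd1, -0.13 to 0.12 for Robo2, -0.018 to 0.31 for Robo1, -0.045 to 0.17 for Robo4, -0.098 to 0.10 for Slit1 and -0.22 to 0.021 for Slit2. Leaving out a library also moved, without a change of sign, Ntn1 (0.55 to 1.41), Efna5 (0.32 to 0.84), Sema6a (0.33 to 0.69), Efnb1 (0.18 to 0.35), Efnb2 (0.18 to 0.39), Ntn4 (0.16 to 0.29), Dcc (0.07 to 0.30), Ephb4 (-0.25 to -0.04), Plxna2 (-0.32 to -0.0087), Plxnb2 (-0.09 to -0.0079), Epha4 (-0.08 to -0.04), Cfl1 (-0.41 to -0.18) and Nrp1 (-0.30 to -0.14) by over 1.5 times. With limma on the VST values, Sema3b was at 0.42, Sema3e, Epha6 and Epha2 at 0.41, 0.41 and 0.20, and Rnd1 at -0.60. The cause was not tested.

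The replicate block called 0 members, and the log2 fold change of Unc5b was 0.35 with an adjusted p of 0.248 by edgeR. It moved Ntn1 to 1.81, Efna5 to 1.08, Nrp1 to -0.34 and Plxnb2 to -0.10. Plxnd1 moved to -0.38, Plxna4 to -0.17, Robo1 to 0.22 and Efna2 to 0.17. Epha5 moved to 0.028, Efna1 to 0.058 and Slit1 to 0.016. The labels give libraries of the same number nothing else in common. Over all genes their deviations from the group mean correlated at -0.198 for replicate 1 and at 0.0157 for replicate 2. Over the members the correlations were -0.241 and 0.494. With 2 libraries labelled Foxp1cKO, the deviations of one mirror those of the other, so these values cannot show whether a litter was shared. Levels per length moved beyond the spread of the controls for 24 of 37 named members with the longest transcript, but only 2 members moved by more than 10 places in the order. With 4 libraries against 2, even changes of several SE, such as those of Unc5b and Tiam1, did not pass edgeR's threshold.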
